A study of Homo sapiens with 4 samples.

Results

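IGFBP3 was 1 gene of 2897 in a table of gene expression from 2 cell lines of human stomach cancer, named AGS-1 and HGC-27, grown with or without isorhamnetin (ISO), a plant flavonol. The gene was selected on its own values in all 4 libraries, as near absent in AGS-1 and lower with ISO in HGC-27, so its values are given as a description and were not tested. Each of the 4 groups held 1 RNA-seq library in the table used here: untreated AGS-1 cells, AGS-1 cells with ISO, untreated HGC-27 cells, and HGC-27 cells with ISO. Both lines carried the label of wild-type genotype, and the labels gave a dose of 50 μM for 24 h, whereas the text of the study names another dose. Values were FPKM, fragments scaled by gene length and library size, so that levels can be set side by side between genes. The libraries held 15235004 fragments in the AGS-1 control, 15957590 in AGS-1 with ISO, 20199425 in the HGC-27 control and 17072456 in HGC-27 with ISO. With 1 library per group no spread between cultures could be measured, and all intervals given for single libraries cover counting error only.

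IGFBP3 encodes a secreted protein that binds the insulin-like growth factors IGF1 and IGF2 and, in blood, carries most of them in a complex with the acid-labile subunit. By holding the ligands it limits their access to the IGF1 receptor, and proteases that cut the binding protein release them again. It also has effects that do not need the ligands, through cell surface partners such as TMEM219 and through partners in the nucleus, and its transcription is known to respond to p53, TGF-beta and hypoxia.

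IGFBP3 (ENSG00000146674) lies on the minus strand of chromosome 7, from 45912245 to 45921874 on GRCh38. The GENCODE 29 annotation has the same start and end and lists 11 transcripts, 8 of them protein coding. Its principal transcript has 5 exons and 873 coding bases. The 250 bases before the RefSeq transcription start are shown because IGFBP3 went from near 0 to a high level between the cell lines (GRCh38.p14, chr7:45921273-45921522, minus strand), with the matches to TATATA and to GGGCGG, read on either strand, in capitals:

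IGFBP3: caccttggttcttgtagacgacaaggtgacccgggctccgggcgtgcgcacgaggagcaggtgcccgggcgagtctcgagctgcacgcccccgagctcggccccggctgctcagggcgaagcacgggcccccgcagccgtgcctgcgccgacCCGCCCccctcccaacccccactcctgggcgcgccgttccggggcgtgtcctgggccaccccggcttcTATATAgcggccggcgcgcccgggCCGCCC

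The letters TATATA, a form of the TATA box, stand 30 to 25 bases before the start, and 3.96% of 27305 promoters of this length hold them on either strand. GGGCGG, the GC box, matches on the other strand at 98 to 93 and at 6 to 1 bases before the start, and 42.3% of promoters hold it. TATAAA, the TEAD core GGAATG, the hypoxia response core ACGTG and the SMAD core CAGAC have no match in this window on either strand, and 11.1%, 11.9%, 18.7% and 37.8% of promoters hold them. The window has 32 CpG pairs, against a median of 11, and 90.7% of promoters have fewer. These matches describe the letters, and binding and methylation were not measured.

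IGFBP3 was at 0.0144 FPKM in the AGS-1 control, at 0 FPKM in AGS-1 with ISO, at 79.8 FPKM in the HGC-27 control and at 18.0 FPKM in HGC-27 with ISO. Both HGC-27 libraries were therefore far above both AGS-1 libraries, and within HGC-27 the untreated library was the higher. The values rest on 1, 0, 7364 and 1404 fragments in the same order. The 95% counting intervals ran from 0.000364 to 0.0800 FPKM and from 0 to 0.0506 FPKM in the AGS-1 libraries, and from 78.0 to 81.6 FPKM and from 17.1 to 19.0 FPKM in the HGC-27 libraries. The order of levels was thus HGC-27 control, HGC-27 with ISO, and then the AGS-1 libraries, which did not differ beyond counting error. A level of 3 fragments, taken as the floor of a library, would be 0.0431 FPKM in the AGS-1 control and 0.0411 FPKM in AGS-1 with ISO. No fold between the AGS-1 libraries is given, because both lay under that floor.

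In HGC-27, IGFBP3 was 4.43-fold lower with ISO, with a counting interval from 4.19 to 4.70, so that 22.6% of the control level was left. On the log2 scale of FPKM + 1, which understates the change of low genes, the ratio was −2.09 (counting standard error 0.0401). Relative to the median log2 ratio of all genes in that line, −0.11, it was −1.98. Between the untreated lines, the level in HGC-27 was 5554-fold that in AGS-1, with a wide counting interval from 997 to 219407 because of the single AGS-1 fragment. With ISO, the level in HGC-27 was at least 437-fold higher than in AGS-1, computed against the floor of 3 fragments per library. In bulk RNA, fewer cells that express a gene and less RNA per cell cannot be told apart.

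The place of IGFBP3 in each library moved with its level. In the HGC-27 control it ranked 371 among the 2897 genes, and 87.2% of genes were below it. With ISO it ranked 2043, and 29.5% were below it. In AGS-1 it ranked 2851 and 2862, where 42 and 36 genes of the table were at 0. These ranks are places among the listed genes only, not among all genes of the cells. Of the listed genes, 98.1% averaged 10 FPKM or more over the 4 libraries, and the median in HGC-27 with ISO was 25.6 FPKM.

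Of 2883 genes whose mean reached 1 FPKM, IGFBP3 had rank 3 of the falls in HGC-27. It was 1 of 27 genes of the table that fell at least 2-fold there (0.932%), a contrast that was part of its selection. TXNIP, an inhibitor of thioredoxin and of glucose uptake, came first, from 128 to 14.9 FPKM (log2 ratio −3.02). A gene with no symbol followed, from 54.95 to 11.4 FPKM (4.84-fold lower, counting interval 4.14 to 5.68), which overlaps the interval of IGFBP3. TMSB4XP8, a thymosin pseudogene which may share fragments with the gene it copies, had rank 5, from 45.1 to 16.1 FPKM. IGFBP3 differed from TXNIP in that the latter was well expressed in AGS-1, at 312 and 65.1 FPKM.

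**Figure D1:**
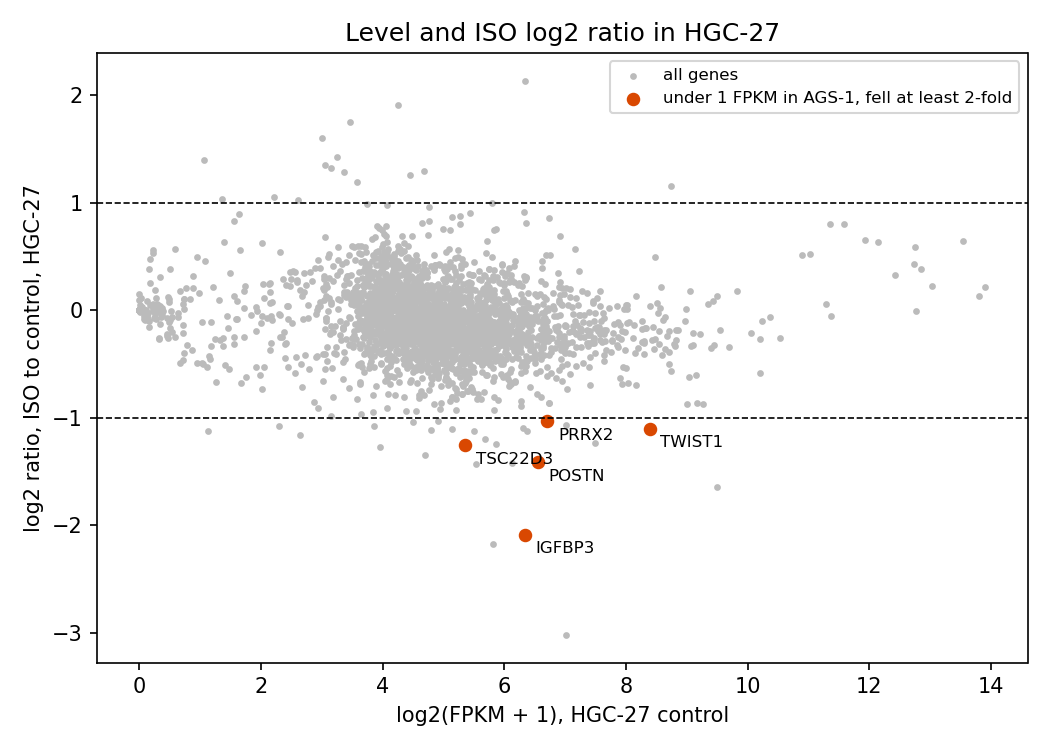
Each point is a gene, with its level in the HGC-27 control as log2(FPKM + 1) on the x axis and its log2 ratio of ISO to control in HGC-27 on the y axis; dashed lines mark 2-fold changes. Orange points are the 5 genes under 1 FPKM in both AGS-1 libraries that fell at least 2-fold, and IGFBP3 has the lowest ratio of these, −2.09.

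The other binding proteins gave the nearest comparison. Of 7 genes for the high-affinity binding proteins and the acid-labile subunit, 4 are in the table: IGFBP2, IGFBP3, IGFBP4 and IGFBP6. IGFBP4, which mostly inhibits IGF action, was at 46.6 FPKM in the AGS-1 control and 21.3 FPKM with ISO, and at 255 and 175 FPKM in HGC-27 in the same order. IGFBP6, which prefers IGF2, was at 82.8 and 40.1 FPKM in AGS-1 and at 28.1 and 18.3 FPKM in HGC-27. IGFBP2, common in fetal and tumor tissue, was at 13.0 and 8.88 FPKM in AGS-1 and at 70.8 and 54.3 FPKM in HGC-27. These 3 genes were expressed in both lines, unlike IGFBP3, and each was lower with ISO in both. Their log2 ratios were −1.10, −1.03 and −0.51 in AGS-1, against −0.54, −0.59 and −0.38 in HGC-27, and each of these values was also below the median of all genes and below 0 under both other scalings.

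IGFBP3 changed its place in the family. In the HGC-27 control the order was IGFBP4, IGFBP3, IGFBP2, the related IGFBP7 and IGFBP6, each apart from the next beyond counting error. In HGC-27 with ISO the order was IGFBP4, IGFBP2, IGFBP7, IGFBP6 and IGFBP3, and the last pair, at 18.3 and 18.0 FPKM, did not differ beyond counting error. The 4 binding proteins summed to 434 FPKM in the HGC-27 control and 265 FPKM with ISO. IGFBP3 made up 18.4% of the first sum and 6.78% of the second, and 36.8% of the decrease, while IGFBP4 made up 47.6% of it. In AGS-1 the sums were 142 and 70.3 FPKM, with IGFBP6 the largest share at 58.1% and 57.1%.

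**Figure D2:**
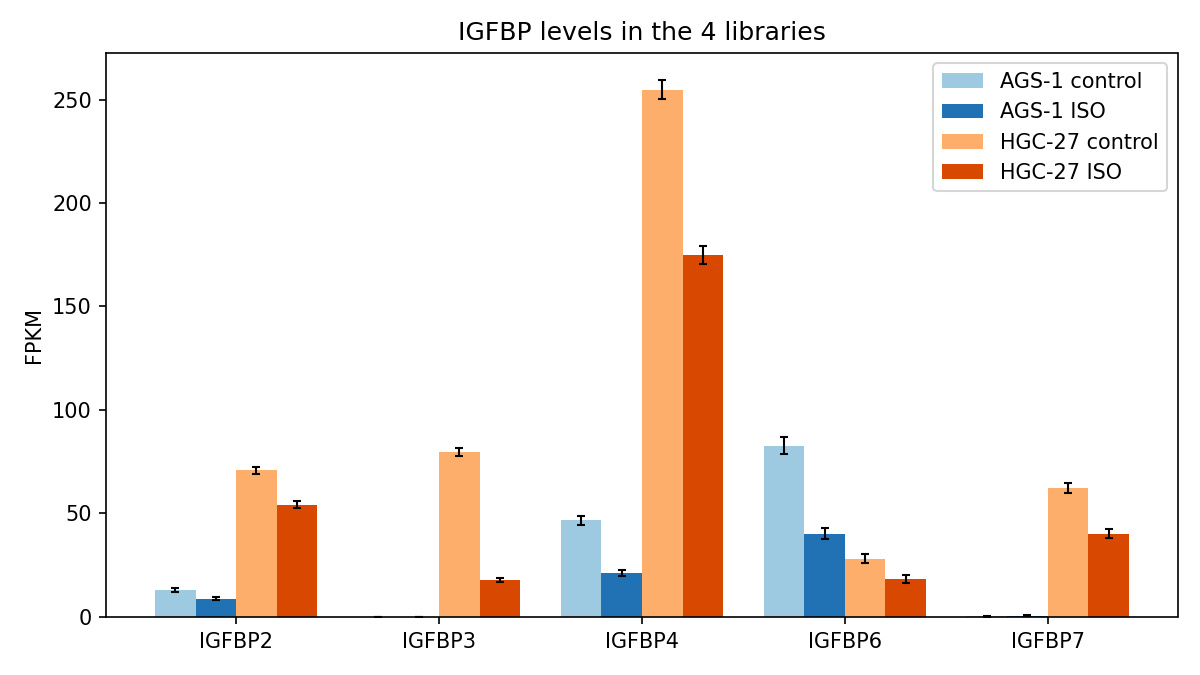
Bars give FPKM of 5 IGFBP genes in the 4 libraries, and error bars are 95% counting intervals. IGFBP3 is near 0 in both AGS-1 libraries and goes from 79.8 to 18.0 FPKM in HGC-27, while IGFBP4 stays the highest of the 5 there.

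Relatives that share the IGFBP domain bind the ligands weakly or not at all, and 6 of 14 are in the table. IGFBP7, a matrix-associated member, had the pattern nearest to IGFBP3 among them, with 0.238 and 0.455 FPKM in AGS-1 and 62.4 and 40.1 FPKM in HGC-27 (log2 ratio −0.63). CCN2, a matricellular protein, was at 130 and 108 FPKM in AGS-1 and at 7.92 and 3.51 FPKM in HGC-27 (log2 ratio −0.98). CCN1, its close relative, was at 36.2 and 26.5 FPKM in AGS-1 and at 20.8 and 14.4 FPKM in HGC-27. CCN2 and CCN1 were thus higher in AGS-1, the reverse of IGFBP3. CRIM1, a membrane protein that binds BMPs, was at 15.5 and 5.57 FPKM in AGS-1 and at 11.1 and 7.51 FPKM in HGC-27. HTRA1, a secreted serine protease, was listed at 0 in AGS-1 and had 23.3 and 27.4 FPKM in HGC-27, higher with ISO where IGFBP3 was lower. KAZALD1 had 5.49 and 5.69 FPKM in AGS-1 and 49.5 and 48.7 FPKM in HGC-27.

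Of 19 genes for proteases that cut IGF binding proteins and their inhibitors, 5 are in the table. MMP1, a collagenase, was at 163 and 78.9 FPKM in AGS-1, and had 0 and 5 fragments in HGC-27. STC2, which inhibits the pappalysins that cut IGFBP4, was at 0.350 and 0.161 FPKM in AGS-1 and at 46.1 and 36.6 FPKM in HGC-27. The lysosomal protease CTSD had 51.1 and 37.1 FPKM in AGS-1 and 13.3 and 13.9 FPKM in HGC-27. MMP1 and STC2 were thus each near absent in one of the lines, and CTSD was expressed in both. TIMP1 and TIMP2, inhibitors of metalloproteinases, had log2 ratios of −0.58 and −0.58 in AGS-1 and −0.05 and −0.31 in HGC-27. No gene of the 3 IGF ligands, the 4 receptors or the 3 IGF2 mRNA-binding proteins is in the table, so ligand and receptor levels were not analysed here.

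Together 15 of 50 genes of the IGF system are in the table. In HGC-27, 1 of the 15, IGFBP3 itself, fell at least 2-fold on the scale of FPKM + 1, which its selection fixed. CCN2 missed this count through the added 1, being 2.26-fold lower without it. With ISO 12 were lower and 3 higher there, or 10 and 5 under either other scaling, and 64.2% of all genes were lower. Their median log2 ratio was −0.38, against −0.11 for all genes, and −0.35 without IGFBP3. In AGS-1, 4 of the 15 fell at least 2-fold, against 192 genes of the table (6.63%): IGFBP4, IGFBP6, CRIM1 and MMP1. Their median there was −0.45, against −0.29 for all genes. The count in AGS-1 depended on the scaling, with 1 gene, CRIM1, under median-of-ratios scaling and 0 under upper-quartile scaling.

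The change shared by both lines could be tested with limma over all 4 libraries, with the cell line as a block and 1 residual degree of freedom. That residual is the difference in ISO response between the lines, so the p-values and standard errors measure no spread between replicate cultures. Of 2883 genes, 27 (0.937%) had an adjusted p under 0.05 in limma with Benjamini-Hochberg adjustment, and 578 had an unadjusted p under 0.05. None of the 14 other IGF system genes passed by limma, and 7 had an unadjusted p under 0.05. At a pseudocount of 0.1 FPKM, where 107 of the 2883 genes passed, 2 of them did, IGFBP6 and CRIM1 (both with an adjusted p of 0.0375 by limma), and with either other scaling 0 passed and 3 had an unadjusted p under 0.05. As deposited, the smallest adjusted p was that of IGFBP6 (0.0822 by limma), with a shared log2 change of −0.81 (standard error 0.205), lower in both lines. IGFBP4 had −0.82 (standard error 0.236, adjusted p 0.120 by limma). IGFBP3 was among the genes fitted, but no test of it is given because of its selection.

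Lists of genes linked to IGFBP3 were described in the same way. Of 26 genes for reported binding partners, 13 are in the table. TMEM219, a cell death receptor for IGFBP3, was at 35.4 and 34.2 FPKM in AGS-1 and at 20.0 and 23.4 FPKM in HGC-27, so it was present in all 4 libraries. The median log2 ratio of the list was −0.45 for AGS-1 (−0.17 and −0.03 under the other scalings) and −0.11 for HGC-27, the latter turning to 0.03 with upper-quartile scaling, beside −0.29 and −0.11 over all genes. In AGS-1, 3 of the 13 fell at least 2-fold, beside 6.63% of all genes, among them EGFR and VTN (VTN not with upper-quartile scaling). None of the 13 changed 2-fold in HGC-27, where 1.48% of all genes did. Of 51 genes of signaling below the IGF1 receptor, 17 are in the table, with medians of −0.48 and −0.12, the first shrinking to −0.21 with median-of-ratios and −0.07 with upper-quartile scaling and the second turning to 0.03 with upper-quartile scaling, which left 4 of the 17 lower in HGC-27 in place of 14. In AGS-1, SHC1, an adaptor, and EIF4EBP1, a repressor of translation, fell at least 2-fold (6.63% of all genes did), but neither did under the other scalings, and none of the 17 changed 2-fold in HGC-27, where 1.48% of all genes did.

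Targets of pathways linked to IGFBP3 were set beside it. The YAP and TEAD targets, which respond to Hippo signaling, had 9 of 23 genes in the table, and all 9 were lower with ISO in HGC-27 (8 with upper-quartile scaling, where MYOF turned), with a median log2 ratio of −0.61, beside 64.2% of all genes. In AGS-1, 7 of the 9 were lower, beside 78.6% of all genes, with a median of −0.44 that came to −0.17 and −0.03 under the other scalings. CCN1, CCN2 and CRIM1 are on this list as well as among the relatives above. AJUBA, an adaptor of cell junctions, had 100.2 and 37.8 FPKM in AGS-1, and 25.1 and 9.26 FPKM in HGC-27 (shared log2 change −1.36, standard error 0.190, adjusted p 0.00633 by limma). AMOTL2, an angiomotin, had 28.3 and 14.8 FPKM, and 14.4 and 5.39 FPKM (shared log2 change −1.08, standard error 0.209, adjusted p 0.0334 by limma). These 2 of 9 passed as deposited, beside 0.937% of all genes tested, and no gene of the table passed with median-of-ratios or upper-quartile scaling. The lists were chosen with earlier results of these data known, so nothing is read from the counts of this list. The 14 of 32 p53 targets in the table had medians of −0.14 and −0.14. The first turned to 0.14 and 0.28 under the median-of-ratios and upper-quartile scalings, and the second came to −0.08 and −0.01. Of the 14, 0 changed 2-fold in either line, a count near the background of 7.46% of all genes in AGS-1 and 1.48% in HGC-27. The p53 targets GDF15 and CDKN1A were far higher in AGS-1 (1420 and 196 FPKM in the control) than in HGC-27 (71.1 and 16.2 FPKM), the opposite of IGFBP3. The 8 of 24 TGF-beta targets had a median of −0.58 for AGS-1 (−0.31 and −0.17 under the other scalings) and 0.03 for HGC-27. In AGS-1, 2 of the 8 fell at least 2-fold as deposited, beside 6.63% of all genes. TGFB1 was 1 of these, though not under the other scalings. The 12 of 26 HIF targets had medians of −0.24 and −0.23. The first came to −0.02 with median-of-ratios scaling and turned to 0.08 with upper-quartile scaling. The second came to −0.17 and −0.09 in the same order. SLC2A1, a glucose transporter, was the 1 of the 12 past 2-fold in AGS-1, except with upper-quartile scaling. This count is near the 6.63% of all genes that fell there.

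**Figure D3:**
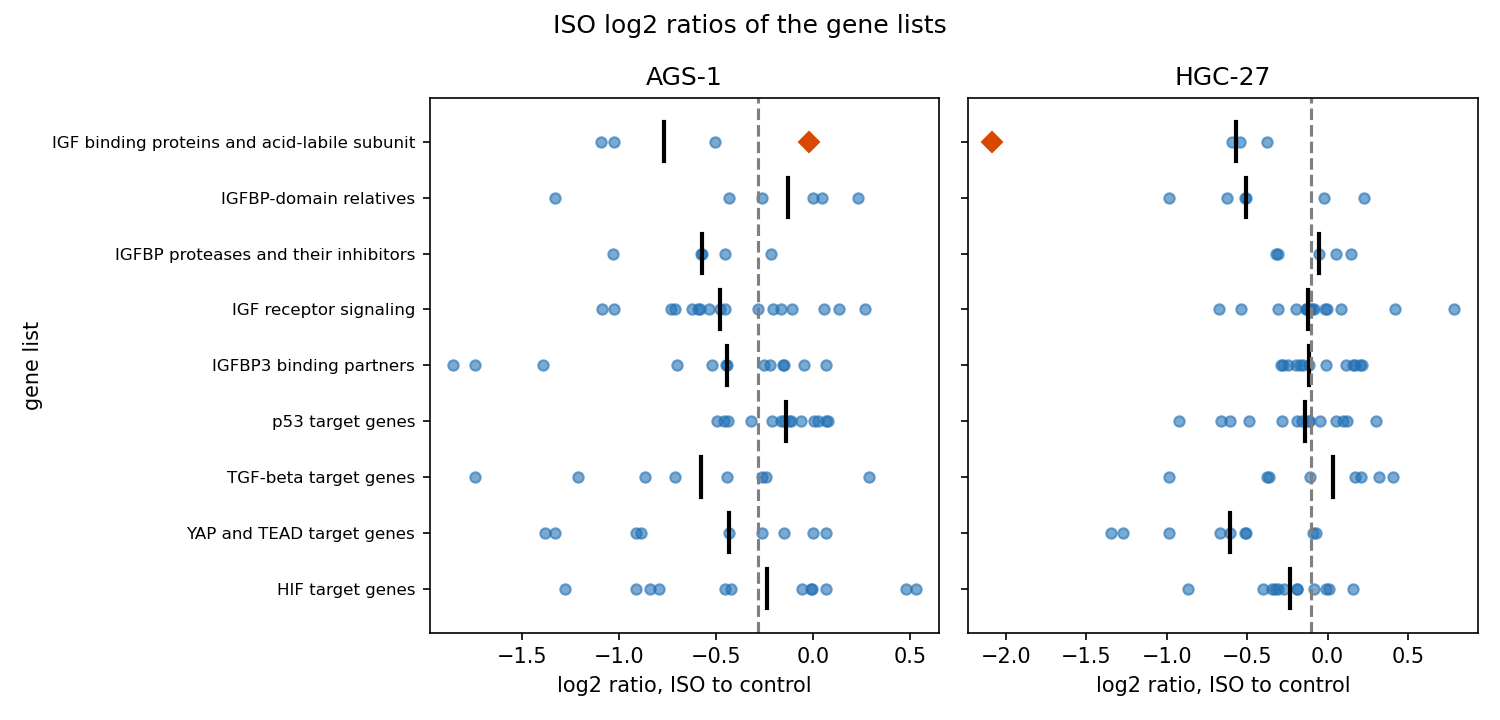
Each point is the log2 ratio of ISO to control of a gene, in AGS-1 on the left and HGC-27 on the right, by gene list; black bars are list medians, the dashed line is the median of all genes and the orange diamond is IGFBP3. The YAP and TEAD targets have a median of −0.61 in HGC-27, against −0.11 for all genes. The lists were chosen with earlier results of these data known.

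The 10 genes whose pattern was most like that of IGFBP3, by Euclidean distance of log2(FPKM + 1) over the 4 libraries, included POSTN (distance 0.926), TSC22D3 (1.07), PFN2 (1.11), RCOR2 (1.14), PRAC1 (1.17), FBLN1 (1.18), CDKN2A (1.20), FSTL1 (1.32) and a long noncoding RNA with no symbol (1.32). The median distance over all genes was 7.29. POSTN, a matrix protein, was listed at 0 in AGS-1 and had 93.1 and 34.4 FPKM in HGC-27. TSC22D3, a glucocorticoid-induced leucine zipper protein, had 0.248 and 0.224 FPKM in AGS-1 and 40.1 and 16.2 FPKM in HGC-27. All 10 stayed at or under 0.248 FPKM in AGS-1, and 2 of them, POSTN and TSC22D3, fell at least 2-fold in HGC-27, where 0.932% of all genes did. The 10 were chosen by likeness over the same libraries, the HGC-27 fall included, so nothing is read from this count. The ratios of the 10 ranged from −1.41 to −0.26, smaller in size than that of IGFBP3.

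**Figure D4:**
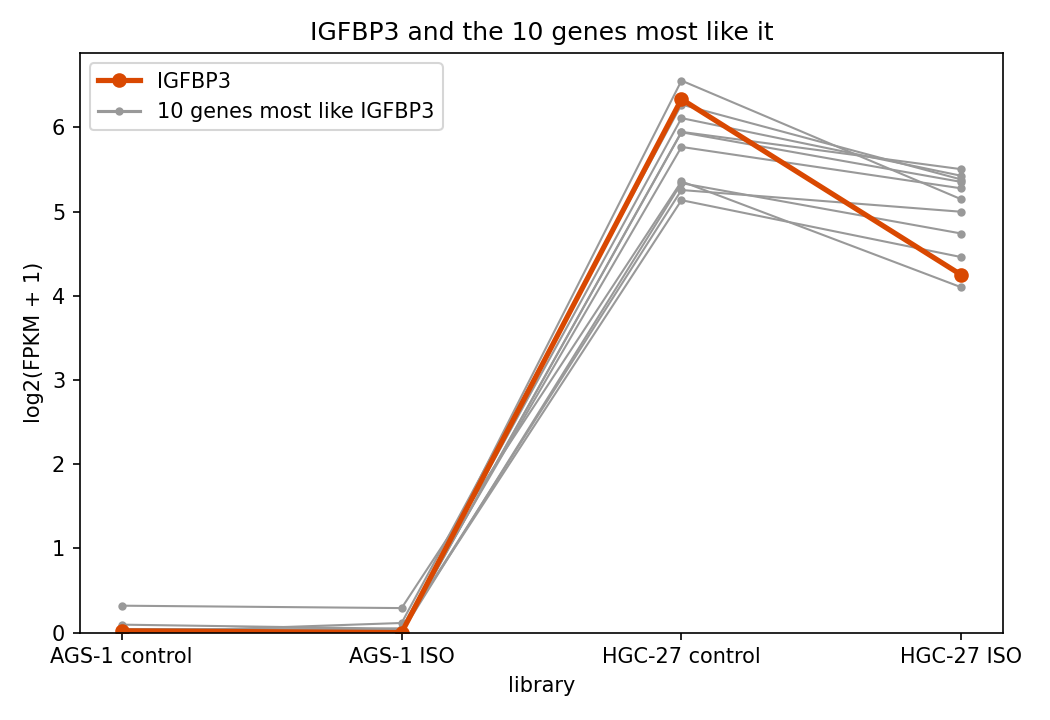
Lines give log2(FPKM + 1) of IGFBP3 (orange) and of the 10 genes most like it (grey) in the 4 libraries. All are near 0 in AGS-1, and IGFBP3 has the steepest drop between the HGC-27 libraries, to 18.0 FPKM.

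Genes near absent in AGS-1 formed a larger group. In all, 85 genes were under 1 FPKM in both AGS-1 libraries, and 5 of them fell at least 2-fold in HGC-27 (0.932% of all genes did), among them IGFBP3 by its selection. Besides IGFBP3, POSTN and TSC22D3 these were TWIST1, a transcription factor of mesenchymal cells, at 334 and 155 FPKM in HGC-27, and PRRX2, a homeobox factor, at 104 and 50.1 FPKM. The median log2 ratio of the 85 genes was −0.21. Of the 85, 70 were over 10 FPKM in HGC-27, and few genes low in both lines are listed, since 98.1% averaged 10 FPKM or more. Genes near 0 in AGS-1 were thus in the table mostly with a high level in HGC-27. The 85 cannot be compared with all genes on equal terms, so nothing is read from the 5 beside the 0.932%. With upper-quartile scaling, chosen here after seeing the data, TWIST1 (−0.95) and PRRX2 (−0.89) no longer reached 2-fold and 3 genes were left. PRRX2 also fell short at a pseudocount of 5 FPKM (−0.98), with median-of-ratios scaling (−0.97) and without mitochondrial fragments (−0.99).

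Summed mesenchymal markers were high in the line with high IGFBP3, and summed epithelial markers were high in the other, although KRT7 was low in both (4.02 and 0.533 FPKM in AGS-1, 1.26 and 0.791 FPKM in HGC-27). The 5 of 16 mesenchymal markers in the table summed to 10.5 and 7.68 FPKM in AGS-1 and to 1509 and 1085 FPKM in HGC-27. COL3A1 was at 427 and 289 FPKM in HGC-27 and COL1A1 at 348 and 313 FPKM, and TWIST1 was at 0 in AGS-1. The 9 of 15 epithelial markers summed to 2564 and 1698 FPKM in AGS-1 and to 10.5 and 9.47 FPKM in HGC-27, with KRT19 at 598 and 332 FPKM in AGS-1 and at 0 in HGC-27. The stomach marker MUC1, 1 of 14 in the table, had 62.8 and 42.2 FPKM in AGS-1 and 4.26 and 3.23 FPKM in HGC-27. Of 9 fibroblast markers, COL1A1 and COL3A1 are in the table and summed to 776 and 602 FPKM in HGC-27 and to 9.75 and 6.83 FPKM in AGS-1. LYZ, the only 1 of 8 immune markers in the table, had 594 and 314 FPKM in AGS-1 and was at 0 in HGC-27. None of 5 endothelial markers is in it. The part of these markers in the level of IGFBP3 was not tested.

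The listed genes held 78.5% of all fragments in the AGS-1 control but 64.4% in AGS-1 with ISO, 61.0% in the HGC-27 control and 60.0% in HGC-27 with ISO. The AGS-1 control thus stood apart, in the line where 192 genes fell and 24 rose 2-fold, and its part in the AGS-1 ratios was not tested. The share of fragments from the mitochondrial genome was higher with ISO, from 9.43% to 14.3% in AGS-1 and from 9.75% to 12.4% in HGC-27. Counted over the fragments outside it, a scaling chosen after seeing the data, the log2 ratio of IGFBP3 in HGC-27 was −2.05. With this scaling 155 genes fell and 31 rose 2-fold in AGS-1. In HGC-27, 25 fell and 20 rose, against 27 and 16 as deposited. The scaling moved the median log2 ratio of all genes by 0.07 in AGS-1 and 0.04 in HGC-27. The cause of the higher mitochondrial share was not tested. The 10 other genes of the table within 2 Mb of IGFBP3 were expressed in both lines, at 11.3 FPKM or more in AGS-1, with log2 ratios from −0.24 to 0.76 in HGC-27. TBRG4, the nearest, lies 800198 bases away. None of the 10, which are POLD2, YKT6, RPL32P18, DDX56, TMED4, OGDH, PPIA, H2AZ2, SNHG15 and TBRG4, changed 2-fold in HGC-27, a count near the background of 1.48% over all genes.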

How the data were processed

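The table used here holds 1 column of mRNA sequencing values per group. The study's text speaks of duplicates, which were not analysed here. The authors deposited FPKM for 2897 genes with the length of each gene in bases, an other unit. The submitters' processing notes name CASAVA 1.8, HISAT2 and GRCh38 (hg38). The counting tool, annotation and selection of the 2897 genes are not given in the sources used here. All value columns matched a sample. In each library the products of FPKM and gene length were multiples of a common step, taken from the lowest product and refined on larger ones, which is the worth of 1 fragment. Dividing by it gave fragments that were whole within 0.1 for 100% of values, and the step gave the library total. Intervals are exact Poisson or Clopper-Pearson intervals at 95%, and 3 fragments was the floor, between 1.49e-05% and 1.97e-05% of a library.

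Ratios were taken on the log2 scale after adding 1 FPKM, with the deposited scaling, and a gene counted as changed at 2-fold. For the shared change, limma 3.58.1 (lmFit, eBayes with trend; R 4.3.3) was run on log2(FPKM + 1) of genes whose mean reached 1 FPKM. It was tried on simulated data, but the outcome is not given here and no result rests on it. Other work used Python 3.11.15, scipy 1.17.1, pandas 2.3.3, numpy 2.4.6, matplotlib 3.10.9, GENCODE 29 and RefSeq promoters. Alternatives were pseudocounts of 0.1 and 5 FPKM, other filters, median-of-ratios scaling, upper-quartile scaling over all genes, other measures of likeness and limits of absence, and, chosen after seeing the data, scaling without the mitochondrial genome and both scalings for the genes absent in AGS-1. The members and the gene lists were chosen with earlier results of these data known. Genes named were IGFBP3, IGF list members, members of other lists changed 2-fold or among the 3 most abundant of a list, the 10 most like IGFBP3, genes absent in AGS-1 that fell in HGC-27, neighbors within 2 Mb, and the 2 genes on either side in the order of ratios. TMEM219, LRP1 and MYOF fall outside this rule, having been picked once their values were known. Some genes that the rule takes are not reported here.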

Additional observations from a re-analysis of the deposited data

Results flagged for a closer look

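In 4 genes of the IGF system or IGFBP3 partners, the log2 ratio of ISO to control had opposite signs in the cell lines. Each ratio was beyond counting error with the deposited scaling. The lists had 15 IGF system genes and 13 partners in the table. The share of all genes with such opposite signs was not counted, so nothing is read from the number. With 1 library per group the differences between the lines were not tested. EGFR, a growth factor receptor, had 43.0 and 11.1 FPKM in AGS-1, and 0.974 and 1.20 FPKM in HGC-27, a difference of 2.02 between the log2 ratios (HGC-27 minus AGS-1). Its fold of ISO over control in HGC-27 had a counting interval from 1.03 to 1.48, with a lower end close to no change. MMP1 had 163 and 78.9 FPKM in AGS-1, and 0 and 5 fragments in HGC-27, a difference of 1.18. The size of this difference depends on the pseudocount, since the MMP1 log2 ratio in HGC-27 went from 0.15 to 1.05 at 0.1 FPKM. HSPA5, a chaperone, had 297 and 267 FPKM, and 122 and 141 FPKM, a difference of 0.36, but its ratio in AGS-1 turned positive under the median-of-ratios (0.12) and upper-quartile (0.27) scalings, so that the signs no longer differed. LRP1, an endocytic receptor, had 11.1 and 11.6 FPKM, and 25.2 and 20.4 FPKM, a difference of −0.36.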

How the results depend on the processing

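The log2 ratio of IGFBP3 in HGC-27 kept its direction in every alternative run, with −1.88 at a pseudocount of 5 FPKM and −1.95 with upper-quartile scaling. Its rank was 4 at a pseudocount of 0.1 and 2 at 5. The IGF system genes changed 2-fold in HGC-27 were 3 at a pseudocount of 0.1 (IGFBP3 and CCN2 lower, MMP1 higher). In AGS-1 they were 0 at a pseudocount of 5, 1 with median-of-ratios scaling, 0 with upper-quartile scaling and 2 without mitochondrial fragments. Genes with a shared change (27, 3 higher and 24 lower) were 107 and 12 at pseudocounts of 0.1 and 5, 6 with no filter, and 0 with either scaling, where 511 and 502 had an unadjusted p under 0.05 in limma. Of the 10 genes most like IGFBP3, 7 were shared at a pseudocount of 0.1 and 7 after centring each gene. Genes absent in AGS-1 that fell in HGC-27 were 5 and 6 at limits of 0.5 and 2 FPKM, 3 with upper-quartile scaling and 4 with median-of-ratios scaling, both scalings chosen after seeing the data. The cause was not tested. Scaling moved the median log2 ratio of all genes by 0.26 and 0.38 in AGS-1 and by 0.06 and 0.14 in HGC-27. With upper-quartile scaling 45 genes fell and 60 rose 2-fold in AGS-1, against 192 and 24, and 15 and 26 in HGC-27, against 27 and 16; median-of-ratios scaling gave 72 and 50 in AGS-1. Both scalings turned the sign of CCN2 in AGS-1 and of TIMP1 and KAZALD1 in HGC-27. In AGS-1, IGFBP3 under 3 fragments is not detectable as a change.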
